A study of Mus musculus with 48 samples.

Results

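The comparison described here sets *Tph2* -/- mice against *Tph2* +/- mice after maternal separation (MS), in 8 mice of each genotype out of 48 in the series. RNA was sequenced from the amygdala of both hemispheres of male mice aged 4 months, labelled C57BL/6 and bred from parents backcrossed on C57BL/6N, 1 library per mouse. All 16 mice came from *Tph2* +/- parents, carried at least 1 null *Tph2* allele from conception, and had been taken from their dams for 3 h per day from postnatal day 2 to 15. They were housed singly after weaning and went through behavioural tests before dissection. The other 4 groups were wild-type mice under either rearing and both mutant genotypes under control rearing (C). Genes were taken for description when they had a mean of at least 10 counts over the 16 MS mice, with *Lars2*, *Gm42418* and the entries for pairs on no gene left out, which gave 5693 of 48440 genes. At this limit 18 genes lay exactly at a mean of 10 and 18 genes lay just outside it, at 9.94.

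*Tph2* encodes the enzyme of the rate-limiting step of serotonin (5-HT) synthesis in the brain, and it is expressed in raphe neurons, whose fibres reach the amygdala. Mice without it lack brain 5-HT almost completely, while heterozygous mice have a moderate reduction at most. The amygdala takes part in fear and anxiety, and separation of pups from the dam is a widely used model of early-life adversity.

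After MS few of the described genes set *Tph2* -/- mice apart from *Tph2* +/- mice, and none did after adjustment for the number of genes. The study's definition of a differentially expressed gene (DEG), a nominal p under 0.01 with an lg2FC (log2 fold change) of more than 0.2 in either direction, was met by 26 of 5693 genes, which is 0.457% of the genes tested. A nominal p alone would put 1% of genes below 0.01 if no gene differed. Of these DEGs 11 were higher (0.193%) and 15 lower (0.263%) in *Tph2* -/- mice. In the quasi-likelihood test of edgeR, adjusted after Benjamini and Hochberg, 0 genes had an adjusted p below 0.05, and the smallest adjusted p was 0.9996, while 184 genes (3.23%) had a nominal p below 0.05. DESeq2 gave 19 DEGs, 149 genes with a nominal p below 0.05 and 0 with an adjusted p below 0.05. The number of DEGs by edgeR depended on single libraries and on the limit on counts. It was 51 without *Tph2* +/- replicate 8 and 16 without *Tph2* +/- replicate 6, in both cases with 0 genes at an adjusted p below 0.05. Without a limit on counts it was 217, and 4 genes had an adjusted p below 0.05, of which *Gm11651* had a mean of 132 counts and the others under 10. The CPM (counts scaled to library size, with a correction for library composition) of the 2 groups did not separate completely for any gene, that is for 0 of 5693. The values of the DEGs below are therefore given as the genes with the smallest nominal p, none of which held after adjustment for the number of genes.

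**Figure D1:**
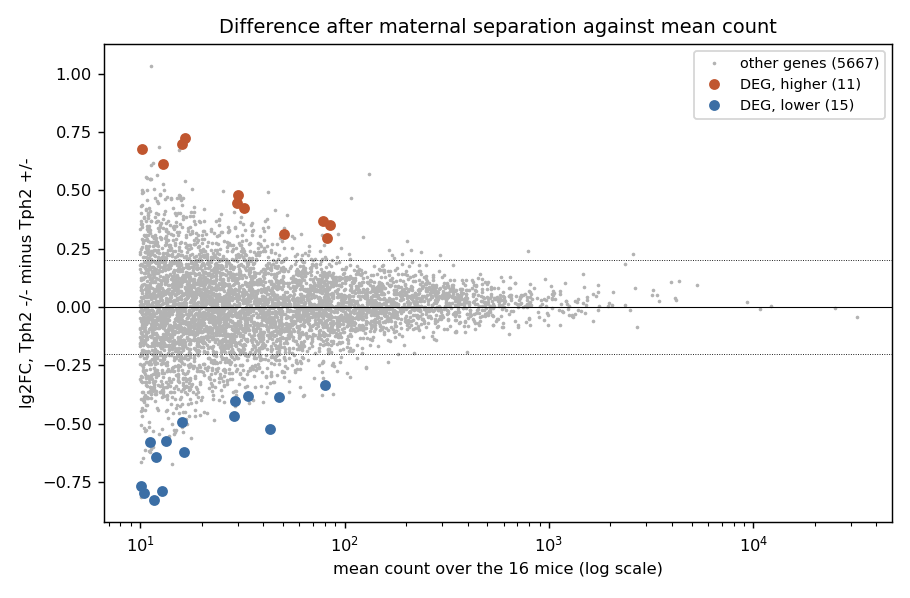
Each point is 1 of the 5693 genes, with its mean count over the 16 MS mice on a log axis and its lg2FC (*Tph2* -/- minus *Tph2* +/-) on the vertical axis. Dotted lines mark an lg2FC of 0.2 in both directions, and the 26 DEGs lie at the edge of a cloud that is wide at low counts and narrow at high counts.

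The comparison had the precision to limit the size of differences for most genes. The median standard error of the lg2FC was 0.17 and the median lg2FC 0.00. For 5614 genes (98.6%) the 95% interval of the lg2FC lay within 1 in both directions, and for 3492 genes (61.3%) within 0.5. From the 5% to the 95% quantile the lg2FC ran from −0.29 to 0.26. Among the DEGs the median of the mean count was 22.6, against 32.6 over all genes, and 13 of the 26 DEGs had a mean count under 20, as did 31.8% of all genes.

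Before the single genes are described, the identity of the counts needs to be stated. Of the 5693 genes, 3617 (63.5%) have exons that overlap exons of a gene on the opposite strand in GENCODE M21, and which strand was counted is not given in the sources used here. The gene opposite was itself counted for 3552 of these, and for 2675 (75.3%) the described gene had more counts than the gene opposite. Among the 25 most counted genes this was so for all 22 that have a gene opposite. *Gm14703*, for instance, had a mean of 5322 counts, while *Syp* opposite, which encodes the abundant synaptic vesicle protein synaptophysin, had 14.0. *Actb*, *Snap25* and *Camk2a*, genes with abundant mRNA in brain, had means of only 7.56, 7.25 and 5.06 counts. RNA of a described gene and RNA of the gene opposite to it therefore cannot be told apart in these counts, and the gene opposite is named beside the genes described below. In tissue RNA, fewer cells of a type and less RNA per cell cannot be told apart either. The libraries were stranded, and which strand was counted was not tested. Functions given below are those of the named genes. Whether mRNA of the named gene was counted is not known, also where no exons lie opposite.

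The genotype itself could not be checked in the libraries, since *Tph2* had almost no counts there. Why it had so few was not tested, and genes with abundant brain mRNA, such as *Actb* and *Snap25*, had few counts as well. *Tph2* had 0 counts in all 8 *Tph2* +/- libraries and 2 counts in total in the 8 *Tph2* -/- libraries, where 6 mice had 0. Of the 16 markers listed for the amygdala, 4 genes were measured, 2 as the marker itself, namely *Nr2f2* and *Pax6*, and 2 as the gene opposite to a marker, *Gpr39* to *Lypd1* and *B130024G19Rik* to *Nr2f2*. *Gpr39* was the seventh most counted gene, with 4068 to 6686 CPM in *Tph2* +/- and 4647 to 10551 CPM in *Tph2* -/- mice.

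The counts on genes were small, from 681479 to 895555 per library in *Tph2* +/- and from 609489 to 868451 in *Tph2* -/- mice, so that 3 counts correspond to between 3.35 and 4.92 CPM. These floors cover counting error only. Of the uniquely aligned pairs 97.1482 to 97.6237% lay on no gene in each library. None of 4 library measures (counts on genes, share of *Lars2* and *Gm42418*, share on no gene and share not unique) differed between genotypes in a two-sided exact permutation test, with p from 0.713 to 0.987 and an adjusted p of 0.987 for all. Whether the 8 mice of a group came from separate litters is not given, and p-values measure the spread between these mice.

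In a principal component analysis 3 libraries stood apart from the other 13 along PC1, which held 27.5% of the variance. They were *Tph2* +/- replicate 8 and *Tph2* -/- replicates 2 and 4, at 25.3 or more on PC1, while the others lay at −1.59 or lower. Their median Spearman correlation with the other libraries was 0.891 to 0.904, against 0.924 to 0.937. In them 269 genes were lower and 15 higher by more than 1 in mean log2(CPM + 2), among them *Gm37376*, opposite to the nuclear RNA *Malat1*, at 3838 to 4782 CPM against 15367 to 26033 CPM in the other libraries. Of these genes 0 were DEGs, against 0.457% of all genes, a share too low for this count to set them apart. Without these 3 libraries there were 34 DEGs, 15 higher and 19 lower, and again 0 genes at an adjusted p below 0.05. Of the 26 DEGs, 12 still passed the thresholds without them. These were *Apobec4*, *Rps2-ps9*, *Zfp609*, *Gm15868*, *Etfdh*, *Dnah3*, *Gm17194*, *Gm2623*, *Dnd1*, *1110004F10Rik*, *A330040F15Rik* and *Gm14739*, and all other DEGs no longer passed.

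**Figure D2:**
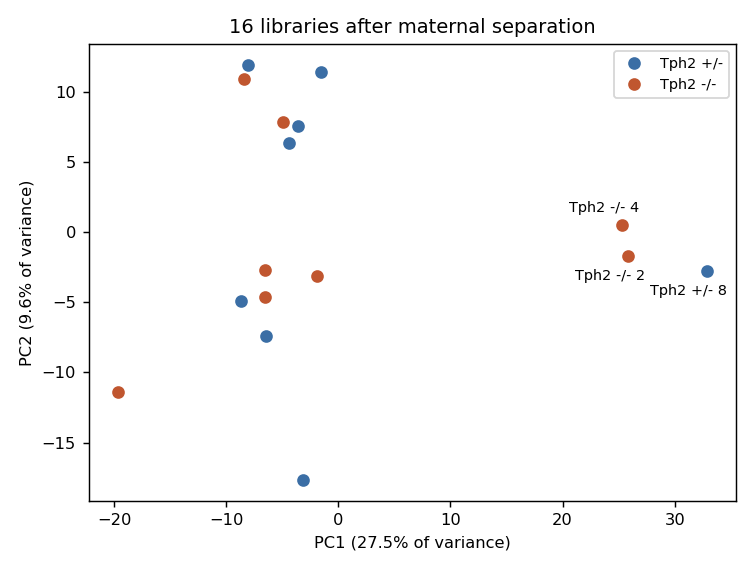
The 16 MS libraries along the first and second principal components of log2 CPM, with the share of variance on each axis and blue points for *Tph2* +/- and orange points for *Tph2* -/- mice. The 3 labelled libraries, 1 of *Tph2* +/- and 2 of *Tph2* -/- mice, lie at 25.3 or more on PC1, and the genotypes are mixed among the other 13.

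The windows upstream of 4 DEGs are shown to give the sequence before their annotated starts, namely the 2 lower and the 2 higher DEGs with the smallest p that have a RefSeq entry and no annotated exon in the window, among those that can be shown here. Each line holds the 250 bases before the start, 5′ to 3′ on the gene's strand, from RefSeq on GRCm38.p6. Capitals mark matches, on either strand, to the GC box (GGGCGG), the CCAAT box (CCAAT) or the cAMP response element (TGACGTCA), which occur in 32.9%, 34.5% and 1.62% of 27025 such windows. *Apobec4* lies downstream of chr1:152750301-152750550 on the plus strand and *Tagap* of chr17:7925750-7925999 on the plus strand. *Os9* lies downstream of chr10:127121161-127121410 and *A330040F15Rik* of chr19:12596567-12596816, both on the minus strand.
Apobec4: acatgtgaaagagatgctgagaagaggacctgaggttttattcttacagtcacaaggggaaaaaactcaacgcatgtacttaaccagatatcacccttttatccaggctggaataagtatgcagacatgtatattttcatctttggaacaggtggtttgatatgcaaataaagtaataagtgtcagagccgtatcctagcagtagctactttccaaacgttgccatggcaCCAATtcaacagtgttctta
Os9: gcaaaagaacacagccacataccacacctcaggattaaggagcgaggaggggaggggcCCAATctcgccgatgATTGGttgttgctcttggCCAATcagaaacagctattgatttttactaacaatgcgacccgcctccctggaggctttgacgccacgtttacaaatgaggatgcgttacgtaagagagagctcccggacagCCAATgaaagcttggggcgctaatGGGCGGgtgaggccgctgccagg
Tagap: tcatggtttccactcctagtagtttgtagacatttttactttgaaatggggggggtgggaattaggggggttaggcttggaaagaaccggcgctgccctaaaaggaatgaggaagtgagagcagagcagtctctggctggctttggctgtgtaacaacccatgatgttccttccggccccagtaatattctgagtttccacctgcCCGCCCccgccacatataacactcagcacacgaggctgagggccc
A330040F15Rik: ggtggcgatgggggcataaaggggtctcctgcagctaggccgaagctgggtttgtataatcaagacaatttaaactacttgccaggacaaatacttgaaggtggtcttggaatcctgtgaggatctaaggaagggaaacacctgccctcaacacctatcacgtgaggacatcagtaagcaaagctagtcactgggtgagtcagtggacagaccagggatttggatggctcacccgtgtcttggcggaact
*Os9* has 4 CCAAT boxes and 1 GC box in its window, *Apobec4* 1 CCAAT box, *Tagap* 1 GC box and *A330040F15Rik* no match to these letters. The matches describe the windows, and whether the counted RNA starts there was not tested.

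Among the lower DEGs, *Apobec4* had the smallest p. It encodes a member of the APOBEC family of putative cytidine deaminases and lies on chromosome 1 (152750551-152757544, plus strand, GRCm38), within the span of *Rgl1* on the other strand but without a shared exon. Its level ran from 60.9 to 93.3 CPM (median 67.6) in *Tph2* +/- and from 42.2 to 65.5 CPM (median 47.0) in *Tph2* -/- mice, and 7 of the 8 *Tph2* -/- mice lay below every *Tph2* +/- mouse. The lg2FC was −0.52 (SE 0.14, 95% interval −0.80 to −0.24). Wild-type MS mice had a median of 60.0 CPM, and under control rearing the genotypes had medians of 59.0 (*Tph2* -/-) and 56.9 CPM (*Tph2* +/-).

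The next lower genes had few counts. ENSMUSG00000085435, an identifier without a name in GENCODE M21, ran from 9.25 to 40.4 CPM (mean 22.4) in *Tph2* +/- and from 9.36 to 18.1 CPM (mean 13.2) in *Tph2* -/- mice. The *Tph2* -/- mice lay close together in the lower part of a wide *Tph2* +/- range, with an lg2FC of −0.79 (SE 0.22, 95% interval −1.23 to −0.35). *Rps2-ps9* is a transcribed processed pseudogene copied from the mRNA of ribosomal protein S2. It ran from 8.79 to 24.4 CPM in *Tph2* +/- and from 5.82 to 18.7 CPM in *Tph2* -/- mice (lg2FC −0.77, SE 0.24). Reads of such a copy can be split with its parent gene and with other copies, so that its count is uncertain. *Zfp609*, a zinc finger protein gene, had medians of 21.4 CPM in *Tph2* +/- and 12.2 CPM in *Tph2* -/- mice (lg2FC −0.83, SE 0.26), the largest lg2FC among the lower DEGs.

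**Figure D3:**
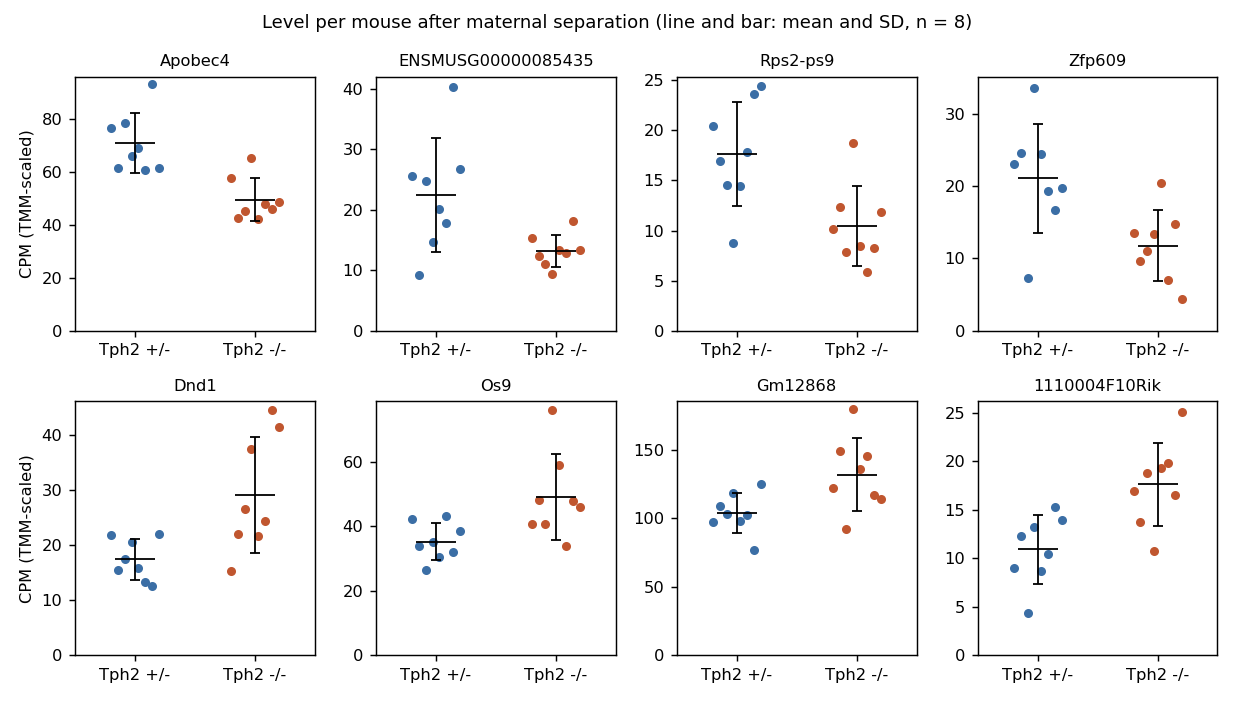
CPM of each mouse for the 4 lower (top) and the 4 higher DEGs (bottom) with the smallest p, with *Tph2* +/- in blue and *Tph2* -/- in orange. Horizontal lines and bars are the mean and SD of 8 mice, each axis starts at 0, and in every panel the groups overlap.

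*Tagap*, a gene known from activated T cells, ran from 89.4 to 150 CPM (median 127) in *Tph2* +/- and from 87.3 to 120 CPM (median 98.2) in *Tph2* -/- mice (lg2FC −0.34, SE 0.11). It shares 716 exonic bases with *E430024P14Rik* opposite, which had a mean of 72.4 counts and an lg2FC of 0.05 (SE 0.14). *Zmynd11*, a reader of methylated histone H3.3 that restrains transcription elongation, had medians of 27.8 and 18.2 CPM (lg2FC −0.62, SE 0.21), with 691 bases opposite to *Gm36423*. *Tcea2*, a transcription elongation factor, had medians of 19.3 and 11.8 CPM (lg2FC −0.58, SE 0.20), with 6 *Tph2* -/- mice below all *Tph2* +/- mice and no gene opposite.

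The remaining lower protein-coding DEGs were *Etfdh*, *Ctsb* and *Dnah3*. *Etfdh*, which passes electrons from fatty acid and amino acid oxidation to ubiquinone, had medians of 22.8 CPM in *Tph2* +/- and 14.6 CPM in *Tph2* -/- mice (lg2FC −0.58, SE 0.21), with 278 bases opposite to *4930579G24Rik*. *Ctsb*, encoding the lysosomal protease cathepsin B, had medians of 53.2 and 41.4 CPM (lg2FC −0.38, SE 0.14) and shares 774 bases with *Fdft1*, squalene synthase, which had more counts (mean 111) and an lg2FC of 0.11 (SE 0.10). *Dnah3*, a dynein heavy chain of motile cilia, ran from 33.7 to 65.3 CPM in *Tph2* +/- and from 21.9 to 41.2 CPM in *Tph2* -/- mice (lg2FC −0.47, SE 0.17), with 1506 bases opposite to *Lyrm1*. In all of these genes the ranges of the genotypes overlapped.

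The other lower DEGs are noncoding genes and pseudogenes. *Gm15868* shares 123 exonic bases with *Fopnl* and ran from 69.7 to 97.3 CPM (median 71.2) in *Tph2* +/- and from 36.2 to 72.7 CPM (median 60.4) in *Tph2* -/- mice, of which 7 lay below every *Tph2* +/- mouse (lg2FC −0.38, SE 0.14). *Gm16244* shares 241 bases with *Hps1*, a gene of the biogenesis of lysosome-related organelles, and had medians of 20.1 and 12.1 CPM (lg2FC −0.64, SE 0.22). *Gm37201*, a processed pseudogene, lies within the span of *Bsn*, which encodes the presynaptic protein bassoon. It had medians of 19.4 and 10.6 CPM (lg2FC −0.80, SE 0.28). The processed pseudogenes *Gm17194* in the span of *Vti1b* and *Gm2623* in that of *Prr14l* had an lg2FC of −0.49 (SE 0.18) and −0.40 (SE 0.15). The counts of *Gm37201*, *Gm17194* and *Gm2623* carry the same uncertainty as that of *Rps2-ps9*. *Dnah3*, *Gm17194* and *Gm2623* were named after their values had been seen.

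Among the higher DEGs, *Dnd1* had the smallest p. It encodes an RNA-binding protein known from germ cells and lies on chromosome 18 (36763671-36766214, minus strand), with 140 exonic bases opposite to *Wdr55*, which had a mean of 2.00 counts. Its level ran from 12.5 to 22.1 CPM (median 16.7) in *Tph2* +/- and from 15.2 to 44.5 CPM (median 25.6) in *Tph2* -/- mice, of which 5 lay above every *Tph2* +/- mouse. The lg2FC was 0.72 (SE 0.21, 95% interval 0.30 to 1.14). Under control rearing its lg2FC was −0.18, and the medians were 19.8 CPM in *Tph2* -/- and 24.3 CPM in *Tph2* +/- mice.

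*Os9*, which encodes a lectin of the endoplasmic reticulum that sorts misfolded glycoproteins for degradation, has no gene opposite. It ran from 26.2 to 43.0 CPM (median 34.5) in *Tph2* +/- and from 33.8 to 76.2 CPM (median 46.8) in *Tph2* -/- mice, again with 5 mice above the *Tph2* +/- range (lg2FC 0.48, SE 0.15). The highest value belonged to *Tph2* -/- replicate 4, a library that stood apart, and without the 3 such libraries the lg2FC was 0.36 and no longer passed the threshold. *Cog5*, a subunit of a complex that tethers vesicles at the Golgi apparatus, had medians of 99.7 and 128 CPM (lg2FC 0.29, SE 0.11). It shares 1514 bases with *Hbp1*, which had a mean of 428 counts and an lg2FC of −0.03 (SE 0.09).

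*Acp1*, a low molecular weight phosphatase, had a median of 35.6 CPM in *Tph2* +/- and 50.6 CPM in *Tph2* -/- mice (lg2FC 0.44, SE 0.16). Of the 8 *Tph2* -/- mice 7 lay above and 1 below the whole *Tph2* +/- range. Under control rearing its lg2FC was 0.35, with medians of 40.3 CPM in *Tph2* -/- and 30.7 CPM in *Tph2* +/- mice. It shares 529 bases with *Alkal2*. *Lims2*, an adaptor of focal adhesions, had medians of 95.3 and 125 CPM (lg2FC 0.37, SE 0.13) and shares 188 bases with *Gpr17*, a receptor of oligodendrocyte precursors, which had an lg2FC of −0.01 (SE 0.17).

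The other higher DEGs are noncoding, pseudogenes or of little known function. *Gm12868* shares 105 bases with *Slc2a1*, the glucose transporter of brain capillaries, and ran from 76.6 to 126 CPM (median 103) in *Tph2* +/- and from 92.5 to 180 CPM (median 129) in *Tph2* -/- mice (lg2FC 0.35, SE 0.12). The highest value was again that of *Tph2* -/- replicate 4, and without the 3 libraries that stood apart the lg2FC was 0.27 and no longer passed the threshold. *1110004F10Rik*, opposite to *1700003G18Rik* over 135 bases, had medians of 11.4 and 17.9 CPM (lg2FC 0.68, SE 0.23), with 6 *Tph2* -/- mice above the *Tph2* +/- range. *A330040F15Rik*, opposite to *Gm47243* over 242 bases, had medians of 40.0 and 49.8 CPM (lg2FC 0.42, SE 0.15), and the pseudogenes *Gm16305*, *Gm7707* and *Gm14739* had an lg2FC of 0.61 (SE 0.22), 0.31 (SE 0.12) and 0.70 (SE 0.26). *Gm14739* was the last gene by p inside the threshold, and *Gm42620* the first outside it, with an lg2FC of −0.48.

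By class, 14 of the 26 DEGs were protein-coding (6 higher and 8 lower), 0.452% of 3096 such genes. Processed pseudogenes made up 3 higher and 3 lower DEGs of 340 (1.76%), and genes annotated as antisense 1 higher and 1 lower of 1194 (0.168%). *Rps2-ps9* is classed apart, as the 1 DEG of 19 transcribed processed pseudogenes (5.26%). Of genes with exons opposite to another gene 14 of 3617 were DEGs (0.387%), of genes that lie within or across the span of a gene on the other strand without a shared exon 7 of 1181 (0.593%), and of genes with no gene opposite 4 of 873 (0.458%). The remaining DEG was ENSMUSG00000085435, which is not in GENCODE M21. These shares are descriptions, and their differences were not tested. Of the DEGs with exons opposite, 5 have a gene opposite that was also among the 5693 (*Cog5*, *Acp1*, *Lims2*, *Tagap* and *Ctsb*), and the lg2FC of that gene lay between −0.03 and 0.11.

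Of the 22 listed genes of the 5-HT system only 3 entries were measured. Of these 0 were DEGs, against 0.457% of all genes, and 3 entries are too few for this count to be read. *Slc18a2*, the vesicular transporter that loads monoamines into vesicles, with 111 bases opposite to *Gm29261*, ran from 106 to 252 CPM (median 227) in *Tph2* +/- and from 108 to 328 CPM (median 238) in *Tph2* -/- mice, with an lg2FC of 0.06 (95% interval −0.27 to 0.39). *Htr1b*, the release-limiting 5-HT1B receptor, had medians of 54.5 and 46.9 CPM (lg2FC −0.09, 95% interval −0.37 to 0.20), and *D430036J16Rik*, opposite to it over 852 bases, had an lg2FC of −0.02 (95% interval −0.31 to 0.28). The other 5-HT receptors and enzymes were too low in these counts to be described.

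The other gene lists held 0 DEGs as well. Over 18 lists of pathways and cell type markers 123 genes were measured, themselves or as the gene opposite, and 0 were DEGs, against 0.457% of all genes. A nominal p below 0.05 was reached by 4 of them, against 3.23% of all genes, and their median lg2FC was 0.02, against 0.00 over all genes. In the stress axis *Nr3c2*, the mineralocorticoid receptor, with 247 bases opposite to *Gm10649*, had medians of 29.7 and 34.3 CPM (lg2FC 0.09, 95% interval −0.35 to 0.53), and *Hsp90aa1*, a chaperone of steroid receptors, an lg2FC of 0.31 with a wide interval (−0.32 to 0.94). Of immediate early genes, which respond to neuronal activity, 4 entries were measured with an lg2FC between −0.19 and 0.15. *Junb* among them, with 173 bases opposite to *Prdx2*, had medians of 424 and 434 CPM.

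Receptors for glutamate and GABA formed the largest list of synaptic genes, with 21 entries and a median lg2FC of 0.04. Of these entries 0 were DEGs, against 0.457% of all genes, which is too low a share for the count to set the list apart. *Gabra2*, a subunit of the GABA-A receptor, was the single one with a nominal p below 0.05, which 3.23% of all genes had, with medians of 12.1 CPM in *Tph2* +/- and 19.8 CPM in *Tph2* -/- mice (lg2FC 0.62, SE 0.29), at a mean of 11.5 counts. *Grin1os*, opposite to the obligatory NMDA receptor subunit gene *Grin1* over 1307 bases, had an lg2FC of 0.01 (95% interval −0.16 to 0.18). For the 12 synaptic vesicle and ion channel entries the lg2FC lay between −0.08 and 0.26, and *Gm14703* opposite to *Syp* had medians of 6829 and 7473 CPM.

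Neuropeptide entries numbered 4. *Parpbp*, opposite to the hypothalamic peptide gene *Pmch* over 435 bases, had the largest lg2FC of all 5693 genes, 1.03, and yet did not pass the test (SE 1.02, 95% interval −1.02 to 3.09). Its medians were 7.78 and 8.30 CPM and its highest value was 82.9 CPM in a *Tph2* -/- mouse, against 26.7 CPM in *Tph2* +/- mice. *A830012C17Rik*, opposite to the enkephalin gene *Penk*, had an lg2FC of −0.01 (95% interval −0.54 to 0.52).

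Among 23 entries for imprinted genes, which are expressed from 1 parental allele, 0 were DEGs (0.457% of all genes) and 3 had a nominal p below 0.05 (3.23% of all genes). *Zrsr1*, with 412 bases opposite to *Commd1*, ran from 21.6 to 28.2 CPM in *Tph2* +/- and from 11.8 to 29.4 CPM in *Tph2* -/- mice (lg2FC −0.42, SE 0.18), while *Commd1* had an lg2FC of 0.04 (SE 0.06). *Nnat*, neuronatin, with 87 bases opposite to *Gm23134*, had medians of 120 and 97.1 CPM (lg2FC −0.24, SE 0.11), and *Gm27539*, opposite to *Kcnq1ot1*, an lg2FC of −0.26 (SE 0.12). Of the 9 entries of DNA methylation and demethylation and the 12 of the circadian clock 0 were DEGs, against 0.457% of all genes, and these lists are too short for the count to be read. The median lg2FC was −0.07 in both.

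**Figure D4:**
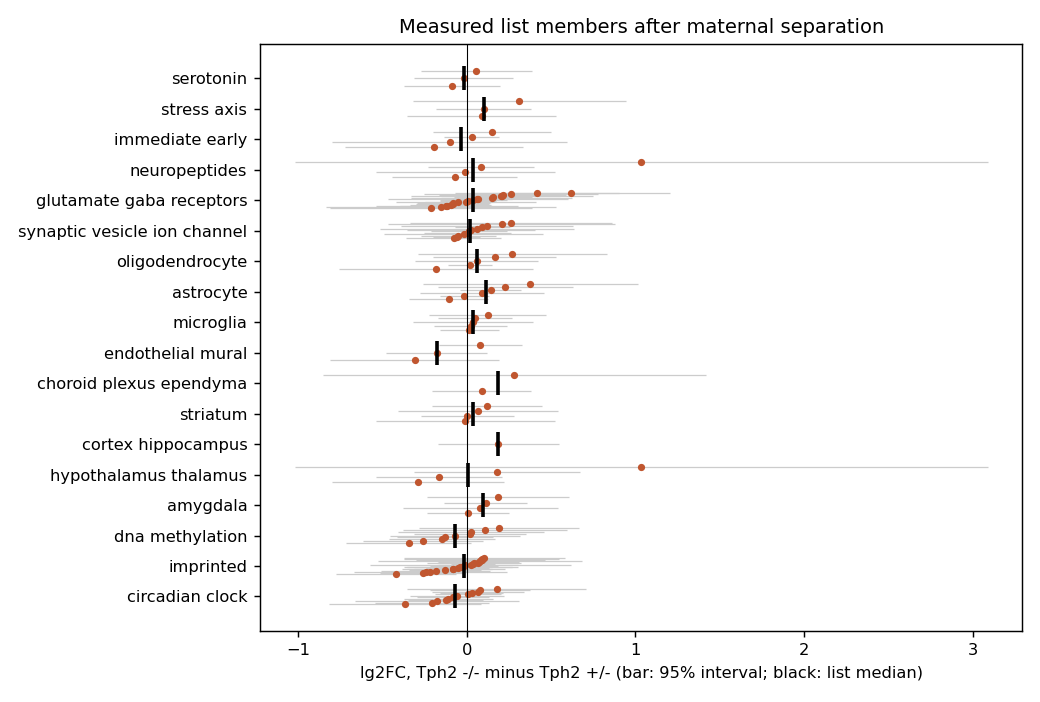
Every measured entry of the 18 gene lists, with its lg2FC (*Tph2* -/- minus *Tph2* +/-) and 95% interval on the horizontal axis and the list median as a black bar. The medians lie between −0.18 and 0.19, and the widest interval is that of *Parpbp*, which stands in 2 lists.

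Summed markers of cell types and of brain regions, the amygdala included, overlapped between the genotypes. Over the 9 marker lists 34 entries were measured, 0 of them DEGs (0.457% of all genes) and 0 with a nominal p below 0.05 (3.23% of all genes), and their median lg2FC was 0.07. The summed CPM of the 6 astrocyte entries ran from 5300 to 7106 in *Tph2* +/- and from 5212 to 6923 in *Tph2* -/- mice, that of the 5 microglia entries from 1343 to 1552 and from 1226 to 1675, and that of the 5 oligodendrocyte entries from 636 to 785 and from 645 to 870. The 2 choroid plexus entries ranged widely in both genotypes, from 114 to 638 CPM in *Tph2* +/- and from 121 to 962 CPM in *Tph2* -/- mice. In the striatum list the sum ran from 442 to 825 and from 460 to 995 CPM.

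Genes near the *Tph2* locus were described apart, since a null allele can carry linked sequence of the strain in which it was made. Within 10 Mb of *Tph2* (chromosome 10, 115078641-115185022, minus strand) 22 genes were measured and 0 were DEGs. The DEG *Os9* lies on the same chromosome outside this window, at 127095650-127121131. Over all genes 0.457% were DEGs, so that a count of 0 in so few genes is no result about the region. Their median lg2FC was 0.00, as over all genes. *Gm28592*, opposite to *Phlda1* over 727 bases, was the single one with a nominal p below 0.05, which 3.23% of all genes had, with medians of 24.0 and 33.1 CPM (lg2FC 0.42, SE 0.20).

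The 25 genes with the highest counts took 21.2% of all counts, and their lg2FC lay between −0.09 and 0.23. Of these genes 0 were DEGs, against 0.457% of all genes, and 0 had a nominal p below 0.05, against 3.23%, shares near those of all genes for a list of this length. The first of them, *Ccdc107*, shares 124 bases with *Rmrp*, the RNA of RNase MRP, and had 45424 ± 7483 CPM (SD, n = 8) in *Tph2* +/- and 44145 ± 10133 CPM in *Tph2* -/- mice. *Gm20721*, opposite to *Gnas*, had 15071 ± 1689 and 14991 ± 1914 CPM, and *Gm13872*, opposite to the astrocytic glutamate transporter gene *Slc1a2*, 3497 ± 358 and 3464 ± 388 CPM.

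The same genotypes were also compared under control rearing, to set the MS comparison beside it. For the same 5693 genes *Tph2* -/- and *Tph2* +/- control mice had 150 DEGs (2.63%), 22 higher (0.386%) and 128 lower (2.25%), and 441 genes (7.75%) had a nominal p below 0.05. With edgeR and Benjamini-Hochberg adjustment 0 genes had an adjusted p below 0.05 there as well, with 0.185 as the smallest. No gene was a DEG under both conditions, that is 0 of 26 and 0 of 150, against 2.63% and 0.457% of all genes. With shares this low, a count of 0 is no result about the overlap. Of the 26 DEGs after MS 11 had the same sign under control rearing, where the median lg2FC of the lower ones was 0.04 and that of the higher ones 0.01. Of the 150 DEGs under control rearing 94 (62.7%) had the same sign after MS, against 50.8% of all genes, and the median lg2FC after MS was −0.03 for those lower and −0.04 for those higher in controls.

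**Figure D5:**
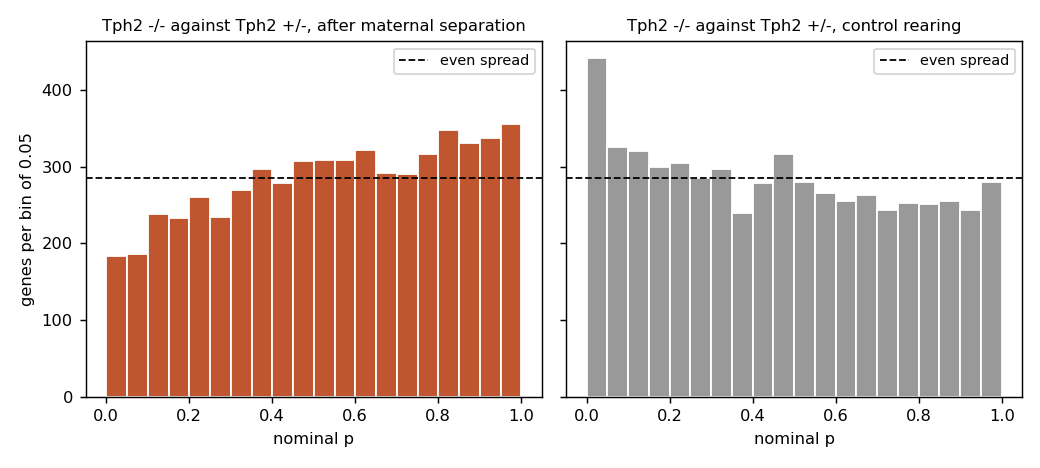
Number of genes per bin of 0.05 in nominal p for *Tph2* -/- against *Tph2* +/- mice, after MS (left) and under control rearing (right), with a dashed line where p-values would lie if spread evenly. The lowest bin holds 184 genes after MS and 441 under control rearing.

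The difference between the genotype effects of the 2 rearing conditions was tested as an interaction. It gave 43 genes at the same thresholds (0.755%), 28 positive (0.492%) and 15 negative (0.263%), 293 genes (5.15%) with a nominal p below 0.05 and 0 with an adjusted p below 0.05. Without *Tph2* +/- MS replicate 8, a library that stood apart, it gave 115 genes (2.02%), 89 positive and 26 negative, with 541 genes at a nominal p below 0.05 and 0 at an adjusted p below 0.05. The smallest adjusted p of all mice, 0.348 by edgeR with Benjamini-Hochberg adjustment, was that of ENSMUSG00000085435, which reached an adjusted p of 0.0489 without *Tph2* +/- MS replicate 2. Its lg2FC over all mice was −0.79 after MS and 0.58 under control rearing. Its medians in controls were 18.1 CPM in *Tph2* -/- and 14.7 CPM in *Tph2* +/- mice, the reverse of the order after MS. *Os9* had an lg2FC of 0.48 after MS and −0.25 under control rearing, and *Gm2623* one of −0.40 and 0.31. These interactions share their MS mice with the comparison that chose the genes and are given as descriptions.

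In wild-type MS mice the mean of the DEGs lay between those of the mutant groups for 22 of 26 genes, as against 28.5% of all genes. Since the DEGs were chosen for a wide gap between the mutant groups, a value between them is favoured by that choice. Of the other 4 (*Acp1*, ENSMUSG00000085435, *Dnah3* and *Gm17194*) the wild-type mean lay beyond the *Tph2* +/- mean in each case.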

How the data were processed

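Amygdala RNA of 48 mice (8 per group) was sequenced by the authors from stranded total RNA libraries with paired 125 bp reads and mapped to GRCm38.p5. The submitters' processing notes name STAR, HTSeq and DESeq2, while the versions of STAR and HTSeq, the annotation release and the strand setting are not given in the sources used here. The deposited file holds raw counts of read pairs per Ensembl gene, without normalization, and 5 entries for pairs on no gene, which were left out; those on no gene made up 97.1482 to 97.6237% of uniquely aligned pairs in the 16 libraries. *Lars2* and *Gm42418* were left out before library sizes were computed.

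Genes with a mean of at least 10 counts over the 16 MS mice were kept, a limit blind to genotype. Library sizes were scaled by TMM, and a model with a mean for each of the 6 groups was fitted to all 48 mice in edgeR (version 4.0.16, R version 4.3.3). Contrasts were taken by the quasi-likelihood F test, p-values were adjusted with Benjamini-Hochberg over all 5693 genes, and the DEG thresholds of the study were used. The fit was tested on simulated data. DESeq2 1.42.0 and other alternatives were run. The members and lists were chosen with earlier results of these data known. The text names up to 12 higher and 12 lower DEGs with the smallest p (11 higher and 12 lower here), list members that were DEGs and check genes. Other list members were named as examples after their values were seen. GENCODE M21 gave names and overlaps for 48058 of 48440 genes, and 22 of the 5693 are not in it. All groups came from the labels. Behaviour and DNA methylation were not analysed here.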

Additional observations from a re-analysis of the deposited data

Results flagged for a closer look

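*Tph2* +/- MS replicate 8 lay far from the other 7 libraries of its group in 4 measures, by Dixon's ratio of the gap to the range. Its counts on genes were the highest of the group (895555), and its share of pairs on no gene the lowest (97.1714%). On PC1 it lay at 32.9, and its median Spearman correlation with the other 15 libraries was 0.891. In all 66 groups of values were checked and 4 were flagged, while chance flags about 1 in 20. The measures come from 1 library and depend on each other. Without this library 51 DEGs were found between the genotypes after MS in place of 26, and 0 genes with an adjusted p below 0.05 by edgeR (245 with a nominal p below 0.05). *Tph2* -/- MS replicates 2 and 4 were not flagged but had a like profile. Their shares on no gene were 97.27 and 97.15%, and they lay at 25.8 and 25.3 on PC1. The share not unique was 15.7 and 15.8% in them and 15.7% in *Tph2* +/- replicate 8. In the other MS libraries of these genotypes it was 13.6% or less. What sets these libraries apart was not tested.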

How the results depend on the processing

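The direction of the 26 DEGs was the same under every alternative run, and 3 of them (*Apobec4*, *Dnd1* and *Rps2-ps9*) passed the thresholds in each alternative and without each single library, although *Rps2-ps9* had too few counts for the limit over all 48 mice. *Zfp609* and *Dnah3* also passed in each alternative other than those that leave out 1 library. Of the 16 fits that leave out 1 library, *Zfp609* passed in 15 and *Dnah3* in 7. The number of DEGs after MS was 26 with DESeq2 size factors, 19 with DESeq2 and 34 with edgeR's own filter. It was 23 with the limit over all 48 mice, 21 with only the groups compared and 23 with the robust fit. The split into higher and lower genes was 11 and 23 with edgeR's own filter and 5 and 16 with only the groups compared. In fits chosen after seeing the data it was 34 without the 3 libraries that stood apart and 27 without 4 libraries rich in *Gm42418*, which belong to other groups. Without a filter on low counts it was 217, and 4 genes had an adjusted p below 0.05 by edgeR, *Enpp2*, *Gapvd1*, *Gm11651* and *Gm43701*, named after their values were seen. The library with the most counts of the gene held 27.3% of the counts of *Enpp2* in the 16 mice, 66.7% of *Gapvd1*, 18.9% of *Gm11651* and 59.7% of *Gm43701*. *Gm11651* had a mean of 132 counts and the others under 10, and with the limit of 10 counts *Gm11651* had an lg2FC of 0.57 (SE 0.31) and was no DEG. Without a filter control rearing gave 549 and the interaction 398 DEGs, in place of 150 and 43, and 143 and 42 genes with an adjusted p below 0.05 by edgeR, in place of 0 and 0. Leaving out single libraries gave 16 to 51 DEGs after MS, with 16 without *Tph2* +/- replicate 6 and 51 without *Tph2* +/- replicate 8, and 0 with an adjusted p below 0.05. For the interaction it gave 23 to 115, with 23 without *Tph2* -/- replicate 2, 28 without *Tph2* +/- replicate 5 or 6, 26 without replicate 7 and 115 without replicate 8. An adjusted p below 0.05 was reached there by 1 gene, ENSMUSG00000085435 without *Tph2* +/- replicate 2 (0.0489), and by 0 without each other library. The same replicate numbers did not pair the mice (correlations from −0.239 to 0.302, 2 of 8 over 0.1, and 2 of 8 *Tph2* +/- mice closest to their own number). With a replicate block there were again 26 DEGs, 21 of them among the 26 above, while *Gm16305*, *Cog5*, *Gm15868*, *Etfdh* and *Ctsb* no longer passed, and 0 had an adjusted p below 0.05. The counts per library, 609489 to 895555, limit the precision for genes with few counts, and differences under an lg2FC of 1 were not simulated.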
